A study of Mus musculus with 24 samples.

Results

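The mitochondrial ribosome makes the proteins encoded by mitochondrial DNA, all of them subunits of the respiratory chain and the ATP synthase. Its proteins are encoded by nuclear genes, made in the cytosol and imported, and the genes named Mrpl and Mrps code for most of its large and small subunit. The members described here are the 78 genes, among 57126 gene IDs in the count files, whose mouse symbol begins with Mrpl or Mrps followed by a number, leaving out pseudogenes and related sequences. By symbol, 51 were counted to the large and 27 to the small subunit, except that Mrps18a and Mrps30, being proteins of the large one, were counted there. For the other members, placement rests on the symbol alone. They lie on 17 chromosomes. Their RNA was measured in cerebellum and hippocampus, both taken from each of 12 BALB/cNctr-Npc1m1N/J mice. The strain is a model of Niemann-Pick disease type C1, in which loss of the lysosomal cholesterol exporter NPC1 leads to neurodegeneration.

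The groups were Npc1-/- with DIP (dipyridamole, which inhibits nucleoside transport and cyclic nucleotide phosphodiesterases), Npc1-/- with vehicle and Npc1+/+ littermates with vehicle, each of 4 mice. DIP injections into the peritoneum (30 mg/kg, 5 days a week) began on postnatal day 28, and PBS with PEG400 served as vehicle. The Npc1-/- mice were 63 days old and of both sexes, with 1 female in the vehicle group, while the Npc1+/+ mice were 65 days old and all female. Age, and the range of sequencing barcodes (ion codes), went wholly with genotype and cannot be told apart from it. Npc1 was measured at 20.1 ± 6.54 CPM in cerebellum of Npc1-/- DIP mice, 28.9 ± 7.29 CPM in Npc1-/- vehicle and 102.5 ± 4.71 CPM in Npc1+/+ vehicle (SD, n = 4 each), and in hippocampus at 18.6 ± 2.54, 19.9 ± 2.42 and 78.0 ± 15.0 CPM in the same order of groups. CPM are counts scaled to a common library size, here with size factors over all 24 libraries. Library totals ran from 1833609 to 11590081 counts, the lowest being the cerebellum of replicate 2 of Npc1-/- vehicle. Summed markers of cerebellar granule cells were 2945 to 4179 CPM in cerebellum and 3.14 to 30.0 CPM in hippocampus, and those of hippocampal principal neurons were 97.7 to 131 CPM in cerebellum and 445 to 1332 CPM in hippocampus.

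Nuclear genes of mitochondrial proteins are known to share promoter elements, among them sites for NRF1, for ETS factors such as GABP, and for YY1. RefSeq promoters on GRCm38.p6, each from 250 bases before to 50 bases after a start site, were matched by symbol to 69 of the 78 genes, with 75 promoters. On either strand, the NRF1 motif was found in 17.3% of these promoters, against 4.6% of all 32851 promoters. The ETS motif CCGGAAG was found in 34.7% against 8.86%, and the YY1 motif AAGATGG in 17.3% against 6.34%. The motif of ZNF143, searched for after promoter letters were seen, was found in 8% against 2.13%, and 61.3% of the members' promoters held at least 1 of the 4 motifs, against 19.4% of all. Matches are descriptions of letters, not of binding. Of the 6 genes that were lower in cerebellum of Npc1-/- vehicle mice (described further on), 4 had an entry, and the promoters of those are shown so that the called genes can be compared. Sequences read 5′ to 3′ on the strand of the gene, with matches on either strand in capitals. The promoter of Mrps14 held none of the 4 motifs in this window, and in Mrpl34 an ETS match overlaps a ZNF143 match.
Mrps25 (GRCm38.p6 chr6:92183974-92184273, minus strand): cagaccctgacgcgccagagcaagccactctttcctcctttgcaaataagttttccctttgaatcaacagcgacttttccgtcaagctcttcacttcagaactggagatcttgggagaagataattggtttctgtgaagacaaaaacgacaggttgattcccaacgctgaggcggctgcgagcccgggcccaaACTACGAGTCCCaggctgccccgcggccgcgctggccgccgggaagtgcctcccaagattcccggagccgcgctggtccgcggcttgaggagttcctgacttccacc
Mrps21 (GRCm38.p6 chr3:95871465-95871764, minus strand): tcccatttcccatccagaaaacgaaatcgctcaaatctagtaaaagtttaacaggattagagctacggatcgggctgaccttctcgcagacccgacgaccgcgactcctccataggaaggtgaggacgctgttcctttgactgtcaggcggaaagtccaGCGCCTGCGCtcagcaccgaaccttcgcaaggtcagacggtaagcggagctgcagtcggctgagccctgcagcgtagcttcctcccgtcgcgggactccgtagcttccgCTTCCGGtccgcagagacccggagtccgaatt
Mrps14 (GRCm38.p6 chr1:160194965-160195264, plus strand): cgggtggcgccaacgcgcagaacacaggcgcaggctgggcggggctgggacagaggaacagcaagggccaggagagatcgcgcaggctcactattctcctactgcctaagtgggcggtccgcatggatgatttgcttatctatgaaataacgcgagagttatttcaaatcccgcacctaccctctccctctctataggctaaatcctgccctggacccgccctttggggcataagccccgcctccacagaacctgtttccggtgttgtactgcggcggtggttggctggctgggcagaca
Mrpl34 (GRCm38.p6 chr8:71464676-71464975, plus strand): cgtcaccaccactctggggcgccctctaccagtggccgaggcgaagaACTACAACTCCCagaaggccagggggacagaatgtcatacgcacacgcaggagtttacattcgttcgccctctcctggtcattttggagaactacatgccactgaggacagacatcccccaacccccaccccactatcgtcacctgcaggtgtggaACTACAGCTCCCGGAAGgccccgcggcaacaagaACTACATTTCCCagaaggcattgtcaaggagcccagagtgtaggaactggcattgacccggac

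Taken as a sum, RNA of the mitochondrial ribosomal protein genes was lower in both Npc1-/- groups than in Npc1+/+ mice, in both tissues. In cerebellum the 78 genes summed to 2588, 2576, 2537 and 2482 CPM in the 4 Npc1-/- DIP mice, 2589, 2620, 2445 and 2715 CPM with vehicle, and 2784, 2798, 2971 and 2945 CPM in Npc1+/+ vehicle. In hippocampus the sums were 2734, 2736, 2674 and 2599 CPM in Npc1-/- DIP, 2711, 2724, 2624 and 2669 CPM in Npc1-/- vehicle, and 2981, 2837, 2799 and 2898 CPM in Npc1+/+ vehicle. Every library of an Npc1-/- mouse lay below every Npc1+/+ library of the same tissue. The means of Npc1-/- vehicle differed from those of Npc1+/+ by -9.83% in cerebellum and -6.83% in hippocampus, and those of Npc1-/- DIP by -11.4% and -6.71%. Between Npc1-/- DIP and Npc1-/- vehicle the means differed by -1.78% in cerebellum and 0.129% in hippocampus, and the libraries overlapped. Without these size factors, the cerebellar sums were 2622 to 2702 CPM in Npc1-/- DIP, 2591 to 2796 in Npc1-/- vehicle and 2830 to 3095 in Npc1+/+, and the hippocampal sums 2518 to 2584, 2470 to 2578 and 2774 to 2846, again with no overlap between genotypes. The 89 genes of cytosolic ribosomal proteins were placed the other way in cerebellum. Their summed CPM there was 5325 to 5826 in Npc1-/- DIP, 5195 to 6191 in Npc1-/- vehicle and 4420 to 4807 in Npc1+/+. In hippocampus it was 6451 to 7339 in Npc1-/- DIP, 6108 to 6592 in Npc1-/- vehicle and 5755 to 6207 in Npc1+/+. There the DIP group lay above Npc1+/+ and the vehicle group overlapped it. Only 19 of these 89 genes had enough counts to test. By edgeR, 0 were higher and 1 lower in Npc1-/- vehicle cerebellum, and 0 passed in Npc1-/- vehicle hippocampus. These sums describe the libraries and carry no test.

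**Figure D1:**
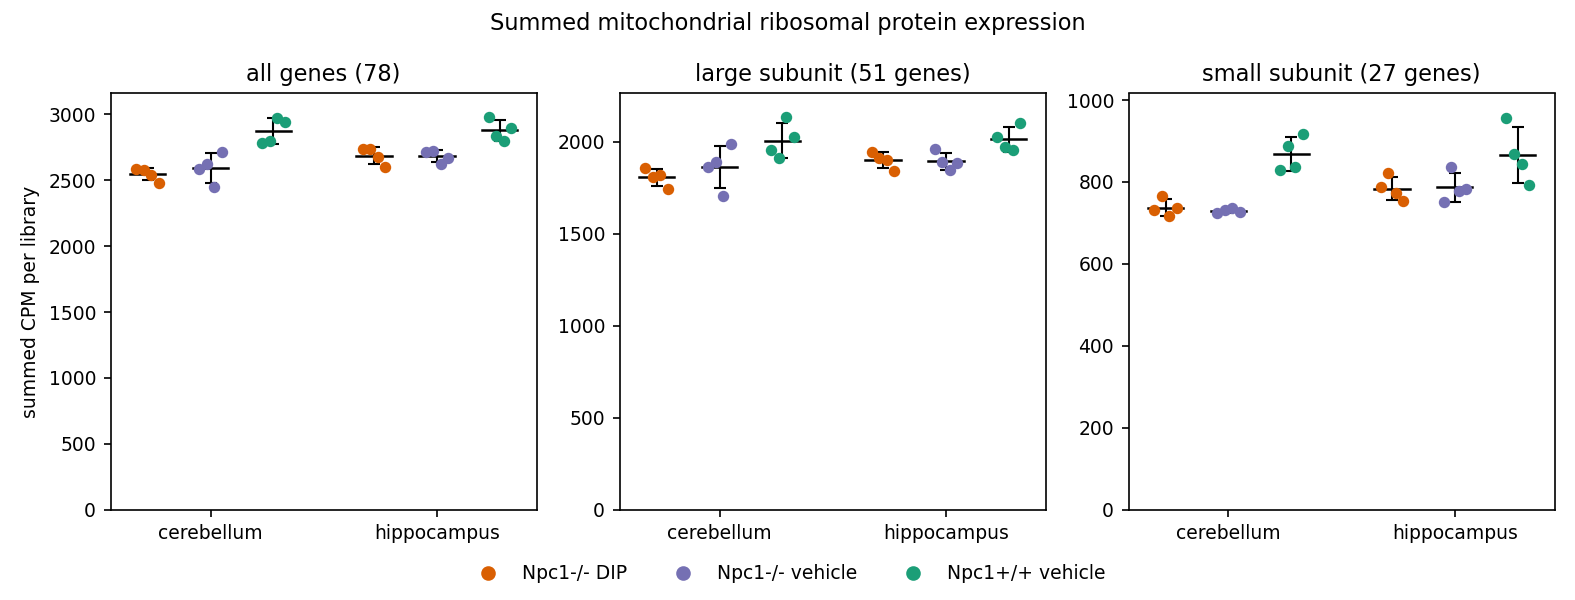
Summed CPM per library (vertical axis, starting at 0) of all 78 genes, the 51 large subunit genes and the 27 small subunit genes, by tissue and group, with points for the 4 mice, lines for the mean and bars for the SD. In the left panel all 8 Npc1-/- points of each tissue lie below the 4 Npc1+/+ points, and in the right panel this holds in cerebellum, where the Npc1-/- vehicle points lie between 724 and 737 CPM.

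By subunit, the 27 small subunit genes in cerebellum summed to 731, 767, 717 and 736 CPM in Npc1-/- DIP, 724, 732, 737 and 726 CPM with vehicle, and 829, 887, 837 and 916 CPM in Npc1+/+, so that no Npc1-/- library reached the Npc1+/+ range. The mean of Npc1-/- vehicle differed from that of Npc1+/+ by -15.9% for the small and -7.22% for the large subunit, where the libraries overlapped (1708 to 1989 CPM in Npc1-/- vehicle against 1911 to 2134 CPM in Npc1+/+). In hippocampus the differences were -9.04% for the small and -5.88% for the large subunit, and both overlapped. Small subunit proteins with a bacterial homologue had 12 of 13 tested genes below 0 in cerebellum of Npc1-/- vehicle, with a median log2 fold change of -0.37. Small subunit proteins found only in mitochondria had 5 of 8 below 0 and a median of -0.25. In the large subunit these were 22 of 26 with a median of -0.26 and 12 of 17 with a median of -0.15. The difference between the subunits was not tested.

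Gene by gene, differences were tested with edgeR's quasi-likelihood test with sex in the fit, and a gene was called at a Benjamini-Hochberg adjusted p under 0.05 over all genes tested. Enough counts for this were held by 64 of the 78 genes in cerebellum and 63 in hippocampus. In cerebellum of Npc1-/- vehicle mice, 6 of 64 genes were lower and 0 higher than in Npc1+/+ mice. Of all 12921 genes, 4.04% were called lower and 5.91% higher, 9.95% in either direction, so the share of members called is close to that of all genes. Of the members tested, 51 of 64 genes lay below 0, with a median log2 fold change of -0.26, against a median of 0.01 over all genes tested, of which 50.7% lay above 0. Groups that did not overlap in CPM were found for 11 genes that were lower and 1 that was higher (Mrpl55), while 10.1% and 10.6% of all genes were so placed (20.7% in either direction). Sex was estimated within the Npc1-/- mice, since all Npc1+/+ mice were female, so a fitted fold need not equal the fold between mean CPM values.

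Mrps25, a small subunit protein that has no bacterial homologue, had the lowest adjusted p of the 6. It lies at GRCm39 chr6:92146506-92161014 (ENSMUSG00000014551.9). Cerebellar levels were 34.1, 28.8, 26.1 and 25.9 CPM in Npc1-/- DIP, 30.7, 31.4, 24.1 and 25.4 CPM in Npc1-/- vehicle, and 40.4, 42.3, 41.6 and 46.7 CPM in Npc1+/+. All 8 Npc1-/- libraries were below all 4 Npc1+/+ libraries. The log2 fold change was -0.81 ± 0.18 (SE; edgeR adjusted p = 0.00602) for Npc1-/- vehicle and -0.70 ± 0.16 (edgeR adjusted p = 0.00530) for Npc1-/- DIP against Npc1+/+. An exon of Mrps25 overlaps one of Nr2c2 on the opposite strand, and counting did not use strand. Amplicon positions were not located, so whether reads of Mrps25 come from the shared stretch was not tested.

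Mrps14 and Mrps21 are small subunit proteins with bacterial homologues. Mrps14 (chr1:160022785-160029740) had 41.8, 47.1, 43.2 and 52.3 CPM in cerebellum of Npc1-/- DIP, 47.2, 37.5, 46.2 and 43.4 CPM in Npc1-/- vehicle, and 69.2, 70.4, 70.6 and 64.8 CPM in Npc1+/+. All Npc1-/- libraries lay below all Npc1+/+ libraries. Its log2 fold change was -0.55 ± 0.17 in Npc1-/- vehicle (edgeR adjusted p = 0.0453) and -0.52 ± 0.15 in Npc1-/- DIP (edgeR adjusted p = 0.0259). Mrps21 (chr3:95769946-95778831) had 45.4, 32.7, 30.3 and 26.6 CPM in Npc1-/- DIP, 26, 33.9, 30.7 and 30.0 CPM in Npc1-/- vehicle, and 37.7, 52.4, 45.6 and 64.4 CPM in Npc1+/+. The vehicle group lay below Npc1+/+, whereas replicate 1 of the DIP group reached into it. The fitted log2 fold changes were -0.89 ± 0.23 (edgeR adjusted p = 0.0194) and -0.69 ± 0.21 (edgeR adjusted p = 0.0349) for Npc1-/- vehicle and Npc1-/- DIP. Mrps21 overlaps an exon of C920021L13Rik on the opposite strand.

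In the large subunit, Mrpl4, Mrpl15 and Mrpl34 were called, all with bacterial homologues. Mrpl4 (chr9:20914034-20920135) had 53.4, 47.2, 36.9 and 34.2 CPM in cerebellum of Npc1-/- DIP, 39.5, 42.2, 30.5 and 42.4 CPM in Npc1-/- vehicle, and 45.2, 43.8, 55.0 and 67.8 CPM in Npc1+/+. The vehicle group lay just below Npc1+/+, and the DIP group overlapped it. Mrpl15 (chr1:4843429-4855962) had 32.4, 34.1, 30.1 and 27.1 CPM in Npc1-/- DIP, 29.2, 34.4, 23.0 and 38.1 CPM in Npc1-/- vehicle, and 40.0, 42.3, 50.2 and 38.9 CPM in Npc1+/+, with no overlap. Mrpl34 (chr8:71917603-71918391) had 47.3, 38.5, 32.0 and 23.5 CPM in Npc1-/- DIP, 22.7, 46.8, 29.2 and 37.8 CPM in Npc1-/- vehicle, and 41.3, 52.2, 51.7 and 58.8 CPM in Npc1+/+, where the groups overlapped. For Npc1-/- vehicle the log2 fold changes were -0.80 ± 0.20 for Mrpl4 (edgeR adjusted p = 0.0133), -0.73 ± 0.19 for Mrpl15 (edgeR adjusted p = 0.0228) and -0.94 ± 0.25 for Mrpl34 (edgeR adjusted p = 0.0229). Without the sex covariate they were -0.45, -0.46 and -0.60 for Mrpl4, Mrpl15 and Mrpl34, and none of these 3 genes passed (edgeR adjusted p = 0.0958, 0.0616 and 0.0671).

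**Figure D2:**
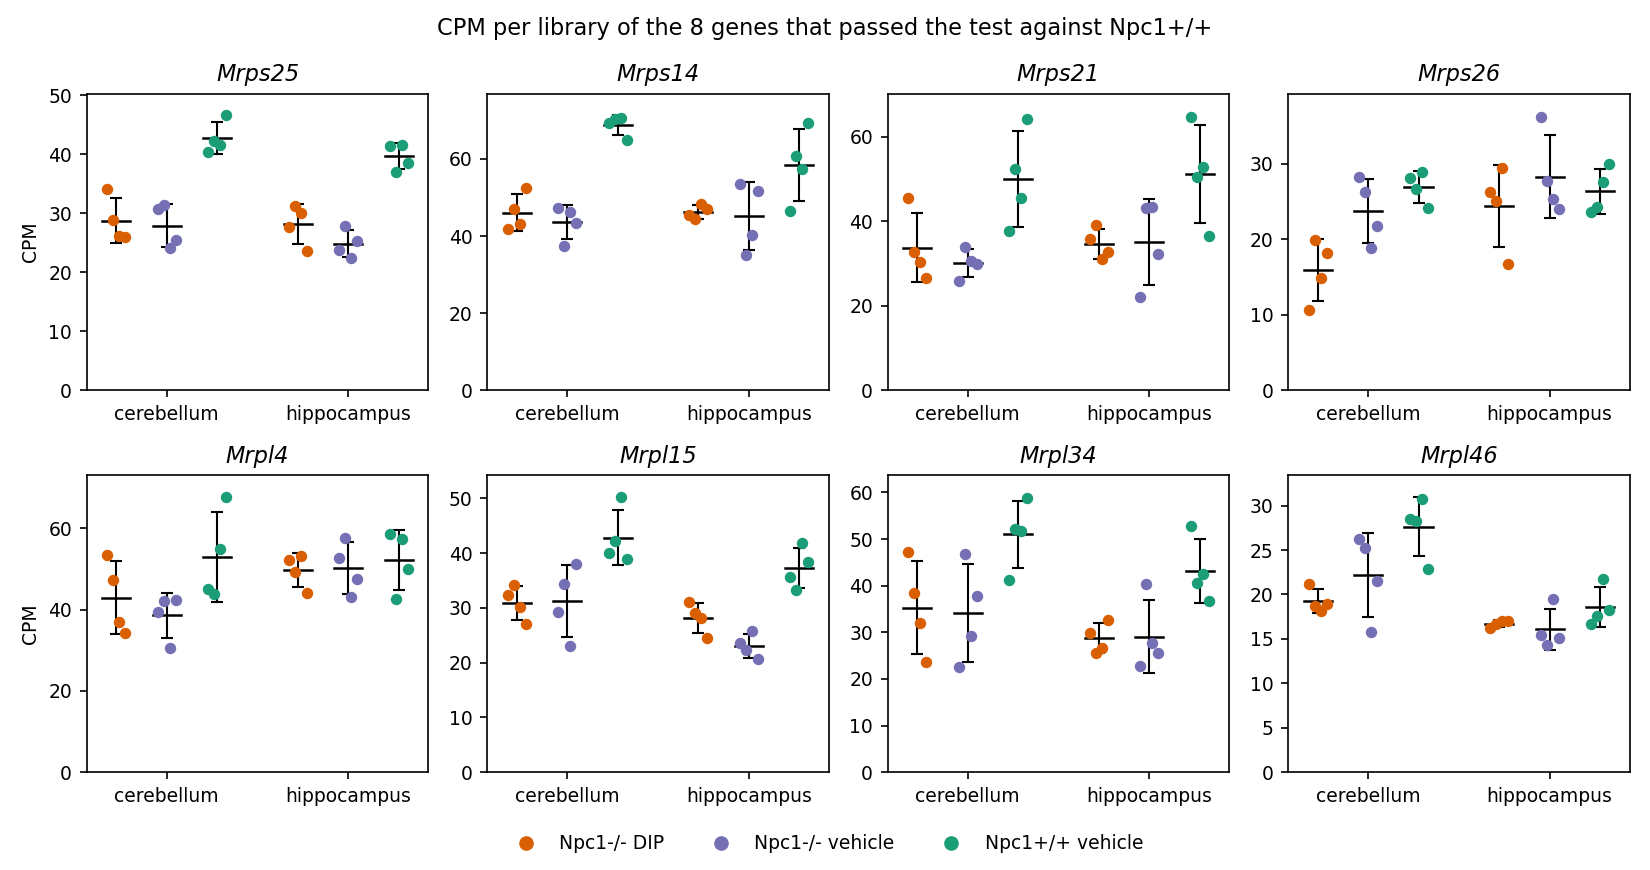
CPM per library (vertical axes, starting at 0) of the 8 genes called in cerebellum in either Npc1-/- group against Npc1+/+, by tissue and group, with the mean and SD of 4 mice. Mrps25 and Mrps14 show all Npc1-/- cerebella below all Npc1+/+ cerebella, and Mrps25 shows the same in hippocampus.

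The calls rested on few animals. Without replicate 3 of Npc1-/- vehicle, the only female of that group, 1 of the 6 genes passed (Mrps21), and without replicate 3 or 4 of Npc1+/+ 3 passed in each case. In a fit of only the 2 groups compared, 0 passed, by edgeR. Without the sex covariate 6 genes passed, of which Mrps14, Mrps21 and Mrps25 are among those above, and DESeq2 called 8, all 6 included. Over all 12921 genes the fit without the sex covariate called 2249 and DESeq2 1673. With 1 mouse of these groups left out, log2 fold changes of the 6 genes stayed between -1.20 (Mrps21) and -0.53 (Mrps14). Whether the lost calls were particular to these genes, or went with fewer calls over all genes, was not tested.

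In Npc1-/- DIP mice, 8 of 64 genes were lower and 0 higher in cerebellum than in Npc1+/+ mice, where 6.29% of all genes were called lower and 8.13% higher (14.4% in all). The 8 held all 6 genes above, and this comparison uses the same Npc1+/+ libraries as that of Npc1-/- vehicle. The median log2 fold change was -0.25, against -0.01 for all genes, and 53 of 64 genes lay below 0. The other two called genes were Mrpl46, a large subunit protein specific to mitochondria, and Mrps26, a small subunit protein specific to mitochondria. Mrpl46 had 21.2, 18.7, 18.1 and 18.9 CPM in Npc1-/- DIP, 26.2, 25.2, 15.7 and 21.6 CPM in Npc1-/- vehicle, and 28.5, 28.3, 30.8 and 22.9 CPM in Npc1+/+. The DIP group lay below Npc1+/+ (log2 fold change -0.67 ± 0.18, edgeR adjusted p = 0.0185), and Mrpl46 shares exonic sequence with Mrps11 on the opposite strand. Mrps26 had 10.6, 19.95, 14.8 and 18.2 CPM in Npc1-/- DIP, 28.3, 26.2, 18.9 and 21.7 CPM in Npc1-/- vehicle, and 28.2, 26.7, 28.9 and 24.1 CPM in Npc1+/+. The DIP group lay below Npc1+/+ (log2 fold change -0.81 ± 0.22, edgeR adjusted p = 0.0190) and reached into the vehicle group at vehicle replicate 3. Mrps26 overlaps an exon of 4930473A02Rik on the opposite strand. Without replicate 3 of Npc1-/- DIP 2 of the 8 genes passed (Mrpl15 and Mrps25), and without replicate 4 there were 3. Without replicate 2 of Npc1+/+ there were 5 and without its replicate 3 there were 3. In fits with 1 mouse left out, log2 fold changes of the 8 genes stayed between -0.99 (Mrps26) and -0.41 (Mrpl4). Whether these losses went with fewer calls over all genes was not tested. In CPM, 13 genes were placed below Npc1+/+ with no overlap, against 12.8% of all genes, and 1 above (Mrpl10), against 13% (25.8% in either direction).

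In hippocampus, 1 of 63 genes was lower in Npc1-/- vehicle mice and 0 were higher, where 0.597% of all genes were called lower and 1.02% higher (1.62% in all). The called gene was Mrps25, with 27.7, 31.2, 30.1 and 23.6 CPM in Npc1-/- DIP, 23.8, 27.8, 22.4 and 25.3 CPM in Npc1-/- vehicle, and 41.4, 37.1, 41.6 and 38.5 CPM in Npc1+/+. Every Npc1-/- library was below every Npc1+/+ library, as in cerebellum. The log2 fold change was -0.80 ± 0.17 for Npc1-/- vehicle (edgeR adjusted p = 0.0349). For Npc1-/- DIP it was -0.58 ± 0.15 and did not pass (edgeR adjusted p = 0.0623). The call was lost when any of the 4 Npc1+/+ mice, or replicate 3 or 4 of Npc1-/- vehicle, was left out. With 1 mouse left out, the log2 fold change for Npc1-/- vehicle stayed between -0.83 and -0.75. Whether the loss was particular to Mrps25 was not tested. Over the 63 genes the median log2 fold change was -0.17 for Npc1-/- vehicle, against -0.01 for all genes, with 47 below 0. Groups did not overlap in CPM for 7 genes that were lower and 1 that was higher (Mrpl38), where 5.38% and 6.29% of all genes were so placed (11.7% in either direction).

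Mrpl15 followed the same pattern in hippocampus without passing. Its levels were 31.1, 29.0, 28.1 and 24.4 CPM in Npc1-/- DIP, 23.6, 22.3, 25.8 and 20.7 CPM in Npc1-/- vehicle, and 35.7, 33.3, 41.9 and 38.4 CPM in Npc1+/+, with no overlap between genotypes (log2 fold change -0.70 ± 0.18 for vehicle, edgeR adjusted p = 0.0815). Mrps31, a small subunit protein specific to mitochondria, was low throughout, at 3.37, 3.71, 3.88 and 3.94 CPM in Npc1-/- DIP, 2.38, 1.37, 1.97 and 1.85 CPM in Npc1-/- vehicle, and 3.16, 6.10, 4.16 and 3.17 CPM in Npc1+/+ (log2 fold change -1.02 ± 0.39 for vehicle, edgeR adjusted p = 0.294). Against Npc1+/+, 0 of 63 genes passed for Npc1-/- DIP by edgeR, where 2.68% of all genes did (1.59% higher and 1.09% lower). At an unadjusted p under 0.05 there were 7 genes, against 16.5% of all genes, and DESeq2 called 2, against 689 of all 12740. The median was -0.15 against -0.02 over all genes, and 50 of 63 lay below 0. Under the alternative settings described further on, this median ran from -0.20 to -0.09. Values by the naming rule were -1.11 ± 0.36 for Mrpl20, a large subunit protein (edgeR adjusted p = 0.135), and 0.48 ± 0.17 for Mrpl55, likewise of the large subunit (edgeR adjusted p = 0.170). Mrpl55 had 28.8, 27.7, 34.2 and 27.3 CPM in Npc1-/- DIP and 20.3, 24.2, 19.3 and 19.3 CPM in Npc1+/+. It was the 1 gene placed higher with no overlap, and 4 were placed lower (Mrpl15, Mrpl34, Mrpl52 and Mrps25), where 6.82% and 5.54% of all genes were (12.4% in either direction).

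For Npc1-/- vehicle, 44 of the 63 genes tested in both tissues were below 0 in both and 9 above in both, and for Npc1-/- DIP these were 46 and 7. The tissues come from the same mice, and the same counts over all genes were not computed. The genotype effect differed between the tissues for 0 of 66 genes by edgeR and by DESeq2, where edgeR called 1.15% of all genes. At an unadjusted p under 0.05 there was 1 gene, against 9.15% of all genes. That gene was Mrpl4, whose log2 genotype effect in cerebellum minus that in hippocampus was -0.63 ± 0.25 (edgeR adjusted p = 0.386). Next by p were Mrpl46 at -0.53 ± 0.29, which was -0.04 without replicate 3 of Npc1-/- vehicle, and Mrpl11 at -0.46 ± 0.27. In hippocampus Mrpl4 had 52.3, 49.3, 53.3 and 44.1 CPM in Npc1-/- DIP, 52.8, 57.7, 43.0 and 47.6 CPM in Npc1-/- vehicle, and 58.6, 42.7, 57.3 and 50.0 CPM in Npc1+/+, and these groups overlapped.

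**Figure D3:**
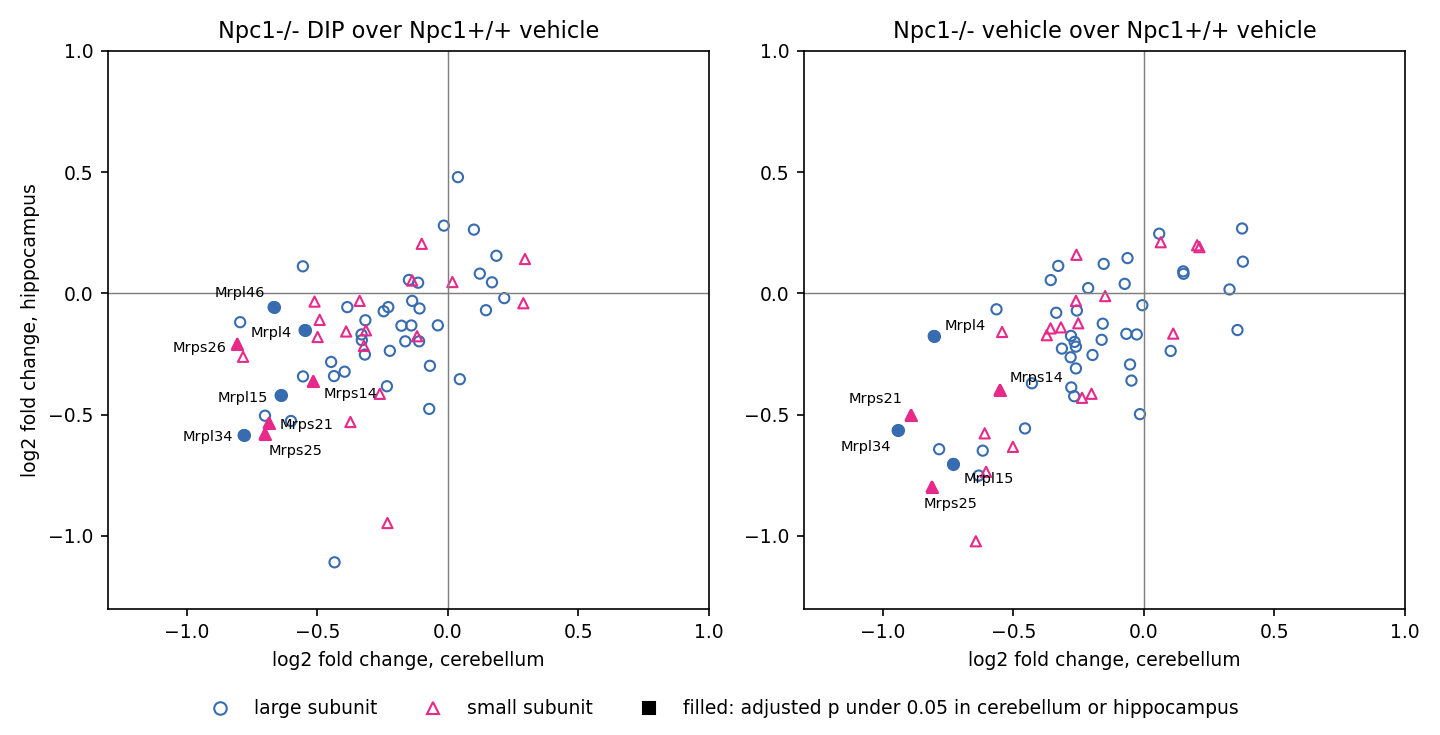
Log2 fold change in cerebellum (horizontal) and hippocampus (vertical) of each of the 63 genes tested in both tissues, for Npc1-/- DIP (left) and Npc1-/- vehicle (right) against the same Npc1+/+ mice, with circles for the large and triangles for the small subunit. Most points lie in the lower left part (46 of 63 on the left, 44 of 63 on the right), and the filled, named genes passed the test in at least 1 tissue.

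Markers of some cell types moved with these comparisons. In cerebellum 5 Purkinje cell markers of 6 were tested and all 5 were lower in Npc1-/- vehicle. The summed Purkinje level was 555 to 705 CPM in Npc1-/- DIP, 471 to 808 CPM in Npc1-/- vehicle, against 4835 to 5752 CPM in Npc1+/+. The 6 tested microglial markers of 7 were all higher, and their sum was 337 to 397, 368 to 411 and 52.0 to 58.5 CPM in the same groups. In hippocampus 7 of 8 myelin markers were lower in Npc1-/- vehicle, and 3 of 6 tested microglial markers were higher. Myelin sums were 658 to 1778 CPM in Npc1-/- DIP, 1207 to 1868 CPM in Npc1-/- vehicle, against 5064 to 6234 CPM in Npc1+/+. Of 6 markers of hippocampal principal neurons 0 passed in Npc1-/- vehicle hippocampus by edgeR, with a median of -0.51. Of 5 astrocyte markers, 2 were higher and 1 lower in cerebellum and 2 higher in hippocampus of Npc1-/- vehicle, and 0 of 4 endothelial markers passed in either tissue by edgeR. Of 6 choroid plexus markers 0 passed by edgeR, but in hippocampus their median log2 fold change was -3.16 for Npc1-/- DIP and -2.87 for Npc1-/- vehicle against Npc1+/+. In cerebellum it was -0.06 for Npc1-/- DIP and -0.16 for Npc1-/- vehicle. Their hippocampal sum varied widely within groups, at 107.8 to 5138 CPM in Npc1-/- DIP, 165.6 to 8093 CPM in Npc1-/- vehicle, against 81.5 to 3560 CPM in Npc1+/+, and the groups overlapped. The median sums were 265.3, 2675 and 1587 CPM in the same order. That of Npc1-/- vehicle thus lay above Npc1+/+, opposite in sign to the fitted value of -2.87. No marker of these lists was at 0 in all libraries. Their part in the results was not tested, and in whole tissue fewer cells of a type and less RNA per cell cannot be told apart. The slope of expression on GC content (log2 units per 10 percentage points) was -0.0526 to 0.118 in cerebella of Npc1-/- DIP, -0.0230 to 0.135 in Npc1-/- vehicle and -0.115 to -0.0479 in Npc1+/+. With this slope as a covariate, the count in cerebellum of Npc1-/- vehicle was 10 lower and 1 higher, and 5 of the 6 genes above remained called. Over all 12921 genes, calls in that comparison went from 1286 to 2356 with this covariate, 1210 higher and 1146 lower.

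For DIP against vehicle within Npc1-/- mice, 0 of 64 genes in cerebellum and 0 of 63 in hippocampus were called by edgeR, and 0 by DESeq2, as were 0% of all genes in each tissue. At an unadjusted p under 0.05 there was 1 gene in each tissue, against 2.32% of all genes in cerebellum and 0.730% in hippocampus. In cerebellum this was Mrps26, given above, with a log2 fold change of -0.55 ± 0.21 (edgeR adjusted p = 0.9998), or -0.27 without replicate 1 of Npc1-/- DIP. The next by p were Mrpl55 at -0.34 ± 0.16 and Mrpl2, a large subunit protein, at 0.31 ± 0.17. In hippocampus it was Mrps31, at 0.91 ± 0.32 (edgeR adjusted p = 0.9999), where all 4 DIP libraries lay above all 4 vehicle libraries, followed by Mrpl15 at 0.28 ± 0.15 and Mrps25 at 0.22 ± 0.14. In cerebellum 1 gene, Mrpl55, was placed lower with no overlap, where 0.573% of all genes were, and 0.65% higher (1.22% in either direction). In hippocampus Mrps31 was the 1 gene placed higher, where 0.691% of all genes were, and 0.51% lower (1.2% in either direction). Medians were -0.03 in cerebellum and 0.02 in hippocampus, against -0.01 over all genes in both. The effect of DIP differed between the tissues for 0 of 66 genes by edgeR and by DESeq2, as for 0% of all genes. At an unadjusted p under 0.05 there were 2, against 1.65% of all genes. These were Mrpl55 (-0.57 ± 0.21) and the small subunit gene Mrps24 (-0.66 ± 0.30), which shares exonic sequence with Urgcp. The Mrps24 value was -0.21 without replicate 1 of Npc1-/- DIP. Mrpl13, of the large subunit, was next at -0.72 ± 0.37.

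Between the tissues, in Npc1+/+ mice, 4 of 66 genes were higher and 5 lower in cerebellum than in hippocampus, where 43.1% of all genes were called, 21.2% higher and 21.8% lower. The median log2 difference was 0.01, against 0.02 over all genes, and summed CPM was 2784 to 2971 in cerebellum and 2799 to 2981 in hippocampus. Higher in cerebellum were Mrps35 of the small subunit (0.66 ± 0.15, edgeR adjusted p = 0.00133), Mrpl46 (0.58 ± 0.17), Mrpl42 (0.54 ± 0.18) and Mrpl1, which in bacteria forms the stalk where tRNA leaves the ribosome (0.44 ± 0.14). Mrps35 had 47.9, 44.4, 43.8 and 45.9 CPM in cerebellum and 25.0, 27.9, 27.4 and 36.1 CPM in hippocampus of Npc1+/+ mice, with no overlap. In Npc1-/- vehicle mice it had 36.9, 22.6, 35.0 and 30.8 CPM in cerebellum and 25.5, 21.2, 21.1 and 32.2 CPM in hippocampus, which overlapped.

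Lower in cerebellum of Npc1+/+ mice were Mrpl20 (-0.76 ± 0.22, edgeR adjusted p = 0.0101), Mrps17 (-0.76 ± 0.23), Mrpl3 (-0.65 ± 0.18), Mrpl52 (-0.49 ± 0.18) and Mrpl10 (-0.37 ± 0.13). Mrpl10, which in bacteria anchors the stalk that recruits translation factors, had 79.1, 71.2, 68.9 and 70.7 CPM in cerebellum and 105, 106, 72.1 and 93.8 CPM in hippocampus, where replicate 3 lay within the range of cerebellum. Mrpl3, whose bacterial homologue starts the assembly of the large subunit, had 35.4, 47.9, 39.6 and 51.6 CPM in cerebellum and 94.8, 60.03, 72.8 and 49.7 CPM in hippocampus, which overlapped. Mrpl3 and Mrpl10 share exonic sequence with predicted genes. In Npc1-/- vehicle mice 3 genes were higher and 7 lower, where 41.4% of all genes were called, and in Npc1-/- DIP mice 0 were higher and 5 lower, where 41.0% were. Mrpl1, Mrpl10, Mrpl3 and Mrps17 were called in both vehicle groups, 0 genes in all 3 groups, and 17 in at least 1. The same counts over all genes were not computed. In Npc1-/- DIP these 4 kept their direction without passing, at 0.24 ± 0.14, -0.28 ± 0.13, -0.44 ± 0.18 and -0.16 ± 0.24 (edgeR adjusted p = 0.174, 0.0948, 0.0617 and 0.623). The 5 in Npc1-/- DIP, named after their values were seen, were Mrpl11, Mrpl52, Mrps26, Mrpl55 and Mrps9. Mrpl11, the partner of Mrpl10 at the stalk base, had 22.03, 38.5, 39.1 and 24.8 CPM in cerebellum and 45.7, 52.8, 58.3 and 51.2 CPM in hippocampus of these mice (-0.78 ± 0.14, edgeR adjusted p = 0.000254). These counts moved with single mice. In Npc1-/- DIP they were 3 without replicate 2 and 2 without replicate 3. In Npc1-/- vehicle they were 6 without replicate 1 and 4 without replicate 2 or 4. In Npc1+/+ they were 2 without replicate 1, 5 without replicate 3 and 14 without replicate 4. Without replicate 1 of Npc1+/+ only Mrpl46 and Mrps35 of its 9 genes passed, and the log2 difference was -0.50 for Mrpl20, -0.44 for Mrps17, -0.38 for Mrpl3, -0.31 for Mrpl52 and 0.30 for Mrpl42. Without replicate 3, Mrpl20, Mrpl3, Mrpl42 and Mrpl52 did not pass, without replicate 2 Mrpl10 and Mrpl52 did not, and without replicate 4 Mrpl10 did not. How far these changes followed a change in calls over all genes was not tested.

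**Figure D4:**
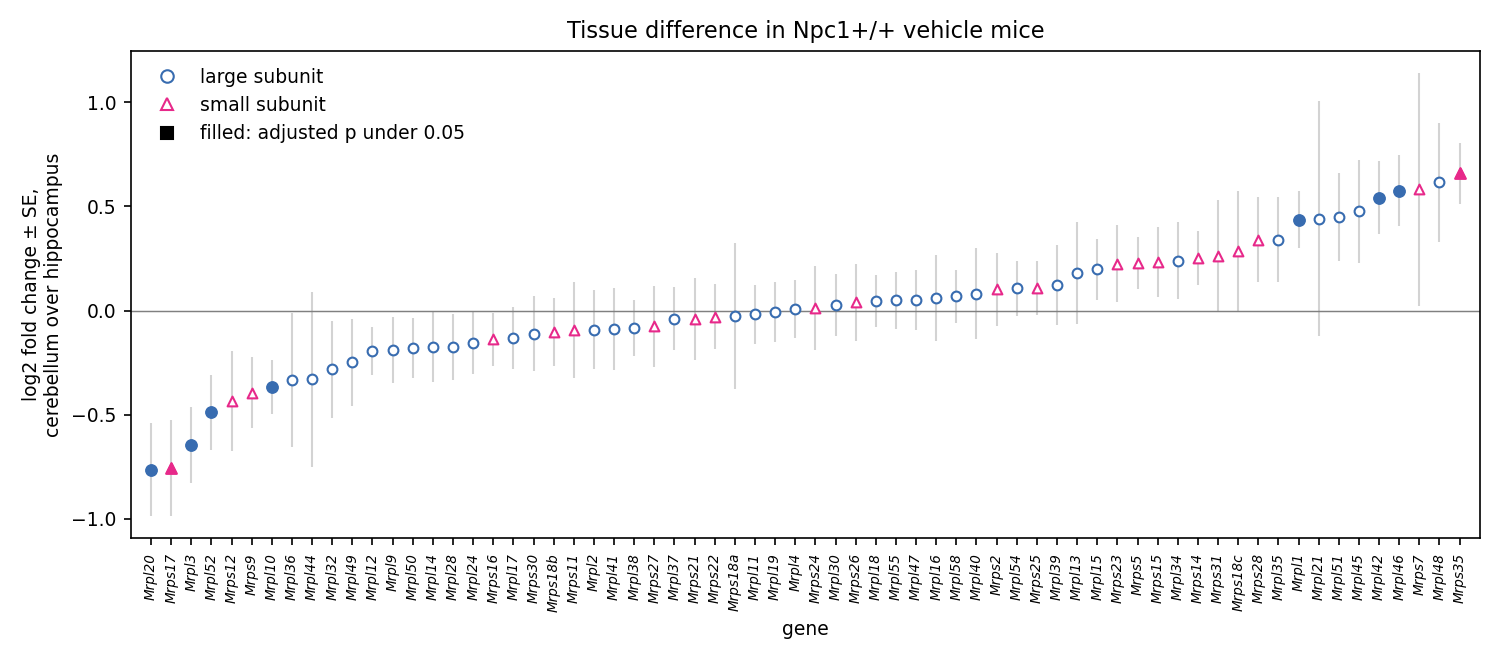
Log2 fold change (vertical, with SE) of cerebellum over hippocampus in Npc1+/+ vehicle mice for each of the 66 genes tested over both tissues, ordered by value, with circles for the large and triangles for the small subunit. Filled symbols passed the test, 5 lower at the left and 4 higher at the right, while most genes lie within 0.5 of 0.

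Proteins that work beside these genes were followed through lists of their genes. Of 5 mitoribosome proteins with other symbols, 4 were tested and 0 passed by edgeR in either genotype comparison in either tissue, and Gadd45gip1 was at 0 in all libraries. Chchd1, a small subunit protein, had 67.4, 55.0, 48.6 and 39.5 CPM in cerebellum of Npc1-/- DIP, 45.8, 64.3, 40.2 and 54.0 CPM in Npc1-/- vehicle, and 46.9, 61.5, 65.7 and 66.8 CPM in Npc1+/+ (log2 fold change -0.58 ± 0.20 for vehicle, edgeR adjusted p = 0.0738). Aurkaip1, also of the small subunit, had a log2 fold change of -0.71 ± 0.37, Dap3 one of -0.12 ± 0.17 and Ptcd3 one of 0.47 ± 0.41 in that comparison. Of 21 tested assembly factors, 1 was lower in cerebellum of Npc1-/- vehicle. This was Tfb1m, which methylates the RNA of the small subunit, with 10.3, 8.23, 9.49 and 7.48 CPM in Npc1-/- vehicle and 17.6, 16.9, 14.1 and 15.9 CPM in Npc1+/+ (log2 fold change -0.74 ± 0.22, edgeR adjusted p = 0.0450). The 2 groups did not overlap.

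Of 12 tested translation factors 0 passed in Npc1-/- vehicle cerebellum, as did 0 of 18 mitochondrial aminoacyl-tRNA synthetases, 0 of 12 genes of mitochondrial DNA and RNA synthesis and 0 of 12 of the mitochondrial stress response, by edgeR. Of 9 nuclear regulators, 1 was higher, the transcription factor gene Myc, at 3.58, 1.03, 2.00 and 5.03 CPM in Npc1-/- vehicle and 1.13, 0.600, 0.898 and 1.09 CPM in Npc1+/+ (log2 fold change 1.72 ± 0.52, edgeR adjusted p = 0.0415), where the groups overlapped. In Npc1-/- DIP cerebellum against Npc1+/+, Mtfmt, which formylates the initiator tRNA, was higher (0.61 ± 0.17, edgeR adjusted p = 0.0190) and the initiation factor gene Mtif2 lower (-1.02 ± 0.33, edgeR adjusted p = 0.0471). Of the stress response, Trib3 (1.92 ± 0.45, edgeR adjusted p = 0.00821) and Chac1 (0.74 ± 0.24, edgeR adjusted p = 0.0484) were higher there, Trib3 at 1.76 to 2.18 CPM in Npc1-/- DIP and 0.261 to 0.800 CPM in Npc1+/+. In hippocampus 0 genes of these lists passed for Npc1-/- vehicle or Npc1-/- DIP against Npc1+/+ by edgeR. Counts of genes encoded by mitochondrial DNA were too low to test in cerebellum, and 2 of 13 were tested in hippocampus. Of the 13, 6 were at 0 in all libraries. Whether amplicons cover these genes was not tested, so their counts say nothing of their RNA levels.

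Over 24 libraries the mean CPM of the 66 genes tested ran from 0.828 for Mrps7 to 160 for Mrpl51, with a median of 38.5. Each gene is read through its own amplicon, so these levels say nothing of the order of RNA abundance between genes. The spread within groups, as SD over mean, had a median of 18.9% over the genes and ran from 7.81% for Mrpl1 to 63.4% for Mrpl21. Mrpl51, the highest, had 120, 125, 147 and 166 CPM in hippocampus of Npc1-/- DIP, 267, 97.0, 105 and 139 CPM in Npc1-/- vehicle, and 90.3, 147, 141 and 196 CPM in Npc1+/+, so that replicate 1 stood highest in the vehicle group and lowest in Npc1+/+. In the same libraries of replicate 1, Mrps21 stood lowest in Npc1-/- vehicle and highest in Npc1+/+, with 22.03, 43.2, 43.4 and 32.2 CPM in Npc1-/- vehicle and 64.8, 50.5, 52.8 and 36.6 CPM in Npc1+/+.

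Not all members could be tested. Mrpl23, Mrpl43, Mrpl57, Mrps33 and Mrps36 had 0 counts in all 24 libraries. Mrpl22 had 12 counts in all libraries together, Mrps10 had 11, Mrps6 had 58, and Mrpl27, Mrpl33, Mrpl53 and Mrps34 had 1 each. Whether amplicons cover these genes, and Gadd45gip1, was not tested, so such counts need not mean low RNA. Mrpl21 was tested in cerebellum and not in hippocampus, and Mrpl44 and Mrps7 only over both tissues together. Of the 78 genes, 33 share exonic sequence with another annotated gene, 27 of them tested, and whether their amplicons lie in the shared stretches was not tested.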

How the data were processed

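Per the labels' protocols, RNA of cerebellum and hippocampus was amplified with the Ion AmpliSeq mouse transcriptome panel, which reads a short amplicon per gene. Per the submitters' processing notes, the tools were FastQC 0.11.9, Trimmomatic 0.39, STAR 2.7.9a and featureCounts 2.0.3, with build GRCm39. The authors deposited a count of reads for every gene, unstranded per the file headers and not normalized by the authors. Library totals ran from 1833609 to 11590081 counts. Amplified reads were counted without molecular identifiers.

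A mouse symbol was found for 51884 of the 57126 gene IDs, and the rest held 0.210% of counts. Each tissue was fitted with edgeR 4.0.16 in R 4.3.3 (TMM, filterByExpr, robust quasi-likelihood test, sex as covariate, 12 libraries). Tissue differences used 24 libraries with the mouse as block, the interactions also a tissue by sex term. P-values were Benjamini-Hochberg adjusted over all genes tested, with 0.05 as the threshold. CPM were computed with TMM factors over all 24 libraries. The pairing of tissues comes from mouse numbers in the labels, and deviations of a mouse's libraries correlated from -0.300 to 0.346. No 2 replicates agreed within counting noise (chi-square over its degrees of freedom was 6.99 to 46.2), and each counted as a sample. The cerebellar and hippocampal library of replicate 4 of Npc1-/- DIP carry the same ion code, 124.

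Members and lists were chosen with earlier results of these data known. Named members were at most 8 called ones per comparison or, where fewer than 3 were called, the 3 of smallest p by their values, and for the tissue difference in Npc1+/+ the 5 highest and 5 lowest, and up to 3 called genes of each other list. The fits were also run on simulated data, whose outcome is not given here and carries no weight in the results. Results were recomputed under 88 alternative settings (DESeq2 1.42.0, no sex covariate, a replicate block, RLE factors, no filter, a stricter filter at a mean of 5 CPM, the GC slope as covariate, the compared groups only, female mice only, and each mouse left out) and 6 chosen after seeing the data, without the mice of the shallow and of the shared-code libraries. GC content was that of transcripts in GENCODE vM21. Median transcript GC was 49.4% for the members tested and 49.8% for all genes tested.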

Additional observations from a re-analysis of the deposited data

Results flagged for a closer look

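In each group of 4 libraries the highest and the lowest value of each of 22 named members, of the library total and of the members' summed CPM were compared with the nearest other value against the whole range, and 7 of 144 such groups stood out. Chance gives about 1 in 20. Mrpl10 was high at 106.8 CPM in cerebellum of Npc1-/- DIP replicate 1, against 82.5 to 84.3 CPM in the other 3 mice. Mrps24 was low in the same library at 13.38 CPM, against 35.4 to 37.6 CPM. Mrps24 was high at 52.79 CPM in hippocampus of Npc1-/- vehicle replicate 1, against 32.2 to 34.8 CPM. Mrpl52 was low in that library at 11.25 CPM, against 22.8 to 23.3 CPM. Mrpl20 was high at 36.83 CPM in hippocampus of Npc1-/- vehicle replicate 2, one of the shallow libraries, against 12.1 to 15.7 CPM. Mrpl13 was high at 10.77 CPM in cerebellum of Npc1+/+ replicate 1, against 8.47 to 8.70 CPM. The cerebellar library of Npc1-/- DIP replicate 2 was low in depth at 6118000 counts (rounded), against 8418000 to 8810000 in the other 3.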

How the results depend on the processing

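No named member changed direction under an alternative, and over all alternatives 509 of their values kept their side of the threshold, 98 lost it and 7 gained it. Members lower in cerebellum of Npc1-/- vehicle against Npc1+/+ numbered 6, and 3 with a replicate block and 0 with the 2 groups only (edgeR). With the GC slope 10 were lower and 1 higher, 11 in all, where calls over all genes went from 1286 to 2356. Among females the Npc1-/- vehicle group held 1 mouse, and the median log2 fold change over the members was -0.30. For Npc1-/- DIP against Npc1+/+ in cerebellum, 8 were lower, and 5 with the block and 5 without the shallow and shared-code mice. With the GC slope 13 were lower and 2 higher, 15 in all, where calls over all genes went from 1864 to 2307. In hippocampus the 1 member for Npc1-/- vehicle was 2 without sex or by DESeq2, where calls over all genes went from 206 to 490 and 419. The member count was 0 with the block, without a filter, with 2 groups or without the shallow and shared-code mice. Among females, with 1 Npc1-/- vehicle mouse, the median over the members was -0.25. The 0 for Npc1-/- DIP was 1 without sex, 2 by DESeq2 and 4 with the GC slope. Calls over all genes there went from 342 to 473, 689 and 748 in the same order. Leaving out 1 mouse gave 1 to 6 members for Npc1-/- vehicle and 2 to 9 for Npc1-/- DIP in cerebellum. In hippocampus it gave 0 to 1 for Npc1-/- vehicle. For the tissue difference it gave 2 to 7 in Npc1-/- DIP, 4 to 8 in Npc1-/- vehicle and 2 to 14 in Npc1+/+. The cause was not tested. Medians over the members stayed between -0.32 and -0.18 in cerebellum and -0.25 and -0.11 in hippocampus for Npc1-/- vehicle. For Npc1-/- DIP against Npc1+/+ they stayed between -0.33 and -0.21 in cerebellum and -0.20 and -0.09 in hippocampus. Replicate numbers do not pair mice across groups (correlations of deviations between -0.343 and 0.542), and the replicate block changed no other count by over 1.5 times. With 4 mice per group and 1.83 M counts in the shallowest library, precision is lowest for low genes such as Mrps31.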
